A study of Mus musculus with 14 samples.

Results

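The hippocampal transcriptome of mice exposed to sustained hypoxia (SH) was compared with that of normoxic controls. The comparison covered 9 of the 14 libraries of the series, 5 SH and 4 control, and 7385 of the 7756 genes in the count table. Libraries were chosen by their labels, and genes by a mean raw count of at least 40 in SH and in control. Of the 371 genes left out, 65 were below this minimum in control only, 88 in SH only and 218 in both. All mice were wild-type (WT) C57BL/6J males, 8 weeks old at the start, and each library was 1 hippocampal sample. SH mice breathed 10% oxygen for 8 h per day over 28 days, and control mice breathed 21% oxygen throughout. Another 5 libraries came from mice under intermittent hypoxia (IH), with oxygen alternating between 10% and 21% for 8 h per day. The control libraries were taken from a preliminary experiment, whereas SH and IH belonged to the main experiment, so exposure and experiment cannot be told apart in any difference of SH from control. The difference of SH from IH compares libraries of the main experiment and is given beside the results, although the control libraries entered the same fit and its estimate of the spread (176 genes called, 64 when only SH and IH were fitted and 123 to 145 without 1 control library). SH and IH mice were killed after behavioral tests on the days that followed the exposure, so their RNA was not taken during hypoxia. Whether the control mice of the sequencing went through these tests is not given in the sources used here. Nothing in the labels links a sample to a cage or a litter, and p-values measure only the spread between these samples.

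When oxygen falls, the prolyl hydroxylases that mark hypoxia-inducible factors (HIF) for destruction lose activity, and the stabilized factors induce genes for glycolysis, vessel growth and erythropoiesis. Low oxygen also disturbs disulfide formation and calcium handling in the endoplasmic reticulum (ER), whose chaperones are induced through ATF6, XBP1 and ATF4. The hippocampus is a structure of learning and memory, and its CA1 neurons are known for their sensitivity to oxygen loss. Its principal neurons switch on a set of immediate early genes when they fire, among them the transcription factors Fos, Egr and Npas4 and the synaptic regulator Arc.

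The total count of a library on the genes of the table lay between 8352359 and 11777102 in control (median 9721256.5) and between 7203663 and 10480841 in SH (median 8617520), and the groups did not differ (exact permutation test, 2-sided, p = 0.254). Normalized counts are counts divided by the library size after TMM scaling, which sets the libraries to a common depth. Libraries differed in the choroid plexus, the tissue that projects into the ventricle next to the hippocampus. The summed normalized count of its 16 markers was 126783 in control replicate 4 against 4114 to 5632 in the other control libraries, and 94005, 42367 and 31554 in SH replicates 1, 2 and 5 against 4770 and 6243 in SH replicates 3 and 4. Ttr, which encodes the transthyretin that this tissue secretes, ranged from 264 to 77651 in control and from 522 to 48146 in SH. None of the 16 markers differed between SH and control (0 higher, 0 lower). In bulk samples such as these, fewer cells of a type and less RNA per cell cannot be told apart. The neuronal markers Camk2a (88966 to 105060.0 in control, 79065 to 105430.0 in SH) and Slc17a7 (30547 to 33006 and 23722 to 29418) were abundant in every library, as the labelled tissue requires, although Slc17a7 was lower in SH (-0.26, adjusted p = 0.0213, edgeR).

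A total of 1508 genes, 20.4% of those tested, differed between SH and control at an adjusted p under 0.05 (edgeR quasi-likelihood test). Of these, 738 were higher in SH (9.99%) and 770 lower (10.4%), a split that moved with the scaling, to 616 and 880 when libraries were scaled by the 80th percentile and 883 and 659 when they were scaled by the library total. The authors deposited genes that had already been chosen for a difference of their processed signal from control, so these shares hold within that selection and not for the transcriptome. Most differences were small. The median log2 fold change was 0.31 among the genes that rose and -0.35 among those that fell, and 8 genes rose and 11 fell by more than 1 on the log2 scale. At the limits of the study, a log2 fold change beyond 0.58 with an unadjusted p under 0.05, 89 genes were higher (1.21%) and 112 lower (1.52%), and with the trends on GC content and transcript length described below removed, 88 were higher and 59 lower. The 5 SH libraries all lay above the 4 control libraries in 641 genes (8.68%) and all below them in 783 genes (10.6%). Against IH, SH was higher in 66 genes (0.894%) and lower in 110 genes (1.49%). Single libraries weighed on the count, which was 909 when control replicate 1 was left out, 978 for control replicate 2 and 1738 for SH replicate 1. Without the 6 libraries rich in choroid plexus markers, which left 3 control, 2 SH and 3 IH libraries, 26 genes were called, 3 higher and 23 lower.

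The genes with the widest separation were led by a signalling subunit and a chromatin protein. Gng13, which encodes a gamma subunit of heterotrimeric G proteins (chromosome 17, 25936145 to 25938380, plus strand, GRCm39), had 392, 458, 374 and 356 normalized counts in the control libraries and 126, 157, 141, 83.7 and 118 in the SH libraries. The lowest control library had more than 2-fold the count of the highest SH library. Its log2 fold change, -1.66, had a standard error (SE) of 0.17 (adjusted p = 7.90e-05), and SH was also below IH, which had 263, 273, 288, 217 and 172 (-0.95, adjusted p = 0.0102). Phc3 encodes a subunit of Polycomb repressive complex 1 (chromosome 3, 30953515 to 31023566, minus strand). Its normalized counts were 573, 729.5, 715 and 704 in control and 2239, 2757, 2348, 2499 and 2711 in SH, and SH exceeded control by 1.88 on the log2 scale (standard error 0.31, adjusted p = 0.00133). Of the IH libraries, replicate 3 had 2259 counts of Phc3 and the others 604 to 817, and SH was above IH by 1.30 (adjusted p = 0.0248).

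Among the 10 lowest genes whose groups did not overlap were 6 that neurons induce when they fire, namely Npas4, Egr4, Ier2, Btg2, Junb and Fos, and they are described with the other activity-induced genes. The rest of these 10 were Gng13, Enho, Pcdha11 and Gm1673. Enho encodes the secreted peptide adropin, and it had 1011, 1087, 1051 and 1017 counts in control and 543, 513, 393, 429.6 and 515 in SH (-1.12 ± 0.12 SE, adjusted p = 7.90e-05). Its level in IH was 639.7 to 943, above SH (-0.63, adjusted p = 0.0102). Pcdha11, a clustered protocadherin of neuronal cell contacts, had 221, 105, 152 and 319 counts in control and 75.1, 80.9, 97.1, 59.9 and 77.4 in SH, a narrow gap of 97.1 to 105 beside a 3-fold spread within control. Pcdha genes share their 3' exons, and the counts could have been split between them. Gm1673, a predicted gene, fell from 320.0 ± 15.6 (SD, n = 4) to 158 ± 41.4 (SD, n = 5).

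The highest genes whose groups did not overlap were, after Phc3, Plin4, Ankub1, Slc18a2, Inhba, Pknox1, Prrg1, Pcdha4, Gjc3 and Tnfsf10. Plin4, which coats lipid droplets, had 95.5, 61.8, 65.9 and 96.8 counts in control and 245, 133, 179.7, 276 and 208 in SH (1.38 ± 0.29 SE, adjusted p = 0.00513). Slc18a2, the vesicular monoamine transporter, had 67.3, 48.3, 88.3 and 99 counts in control and 123, 152, 157, 169 and 216 in SH (1.11, adjusted p = 0.00566). All 5 SH libraries exceeded the highest control library for both genes, as the choice of genes without overlap required, and the counts of Slc18a2 were low. Ankub1 (1.23), Pknox1, a TALE homeobox gene (0.98), Prrg1, a membrane protein with a Gla domain (0.90), Pcdha4 (0.84), Gjc3, a glial gap junction gene (0.84), and Tnfsf10, the death ligand TRAIL (0.84) followed on the log2 scale. Leaving out control replicate 1 ended the call of Pcdha4 (adjusted p = 0.0718), and that of Tnfsf10 was lost without any one of 5 libraries (control replicates 1, 2 and 3, SH replicates 2 and 3).

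**Figure D1:**
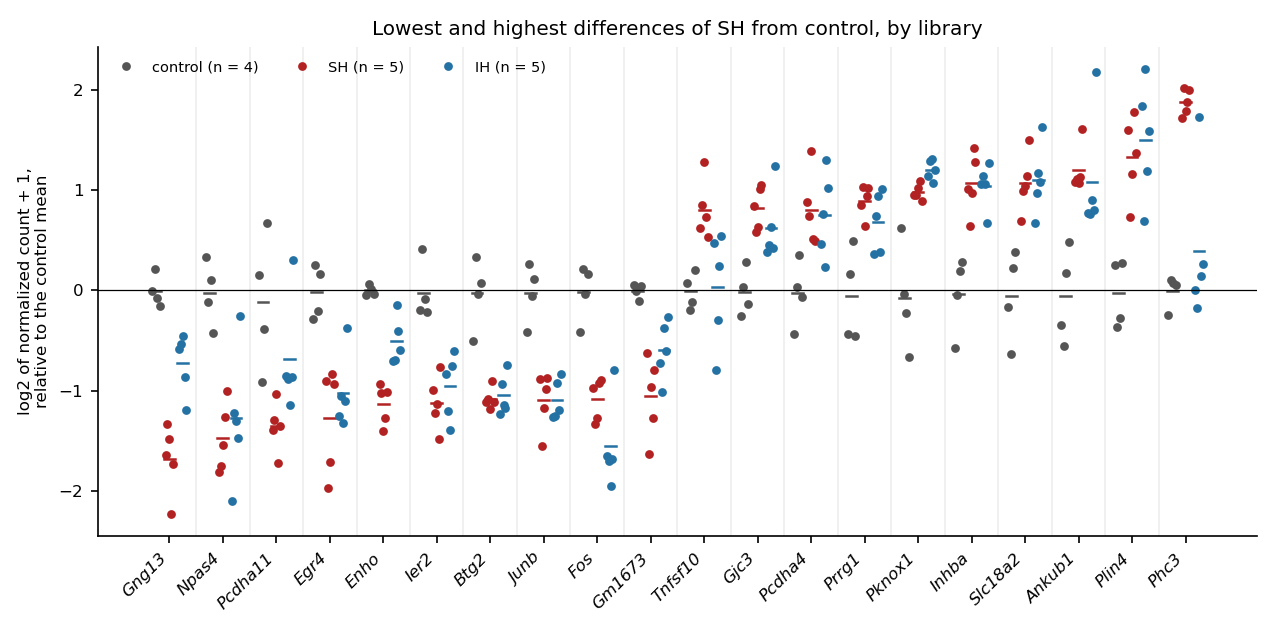
Normalized counts of the 10 lowest and 10 highest genes of SH vs. control whose groups did not overlap, as log2 of the count plus 1 relative to the mean of the control libraries. Points are libraries and bars are group means. All SH points of Gng13 lie below and all SH points of Phc3 above those of control (log2 fold changes -1.66 and 1.88), and 1 IH library of Phc3 lies among the SH libraries.

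The genes with the smallest adjusted p moved less but with little spread. Pcsk1n, which encodes the prohormone convertase inhibitor proSAAS of neuronal secretory granules (chromosome X, 7786043 to 7790649, plus strand), had 12439, 11642, 10717 and 10399 counts in control and 6736, 5007, 5798, 5923 and 5878 in SH. It fell by 0.95 on the log2 scale (standard error 0.083, adjusted p = 1.45e-05), and IH, at 8320.1 to 10289.7, lay between the groups and above SH (-0.66, adjusted p = 5.07e-04). Hcfc1r1, which encodes a regulator of the export of host cell factor from the nucleus, fell from 1057 ± 58.2 (SD, n = 4) to 613 ± 43.6 (SD, n = 5; adjusted p = 1.45e-05). Neurl1a, a ubiquitin ligase of dendrites, fell from 6135 ± 259 to 4217 ± 198 (adjusted p = 5.19e-05). Rpl38 and Enho completed the 5 genes lower in SH.

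On the higher side Cpeb4, Cldnd1, Lsm14a and Edil3 had the smallest adjusted p, between 4.03e-04 and 7.25e-04. Cpeb4 controls the polyadenylation and translation of stored mRNA, and its counts were 3249, 3353, 3312 and 3435 in control and 4061, 4550.4, 4361, 4567 and 4255 in SH (0.39 ± 0.051 SE). Lsm14a, a component of P-bodies that hold repressed mRNA, rose from 1196 ± 90.5 (SD, n = 4) to 1637 ± 76.1 (SD, n = 5). Cldnd1 encodes a claudin-like membrane protein and Edil3 an integrin-binding matrix protein, and they rose by 0.49 and 0.45 on the log2 scale.

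The calls followed the base composition and length of the transcripts. Of the 2206 genes whose transcript had 55% GC or more, 538 were lower in SH and 22 higher, with a median log2 fold change of -0.19, whereas of the 875 genes under 42% GC, 240 were higher and 5 lower, with a median of 0.22. The median over all genes tested was 0.0032. Genes that fell had a median transcript length of 2337 bases and 57.6% GC, genes that rose 4796.5 bases and 44.0% GC, and the other genes 3441 bases and 51.0% GC. Library by library, the median of the GC-rich genes relative to the mean of the 9 libraries was 0.15, 0.093, 0.043 and 0.082 in control and 0.0091, -0.18, -0.091, -0.13 and -0.11 in SH. SH replicate 1 thus lay near 0 and closest to control replicate 3. Between SH and IH, the medians of the 5 GC classes lay between -0.055 and 0.036. After each library's trend on GC content and transcript length was removed, 420 genes were called, 197 higher and 223 lower. Of the genes first called, 145 of the 738 higher and 190 of the 770 lower were called again in the same direction, and the sign turned in 4 and 38. Whether these trends came from the tissue, the RNA or the libraries was not tested. For many of the lists, counts with the trends removed are given as well. Their background is the 197 higher and 223 lower of the 7385 genes in that fit, and not the shares of the first fit. Of the single genes described here, Pcdha4, Tnfsf10, Cpeb4, Edil3, Slc17a7, Klf2, C1qa, Tyrobp, Csf1r, Ndufb7, Cox6a1, Kcnj4, Rpl17, Hsp90b1, Dnajc3, Rbm28 and Ftl1 were among those that lost the call.

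**Figure D2:**
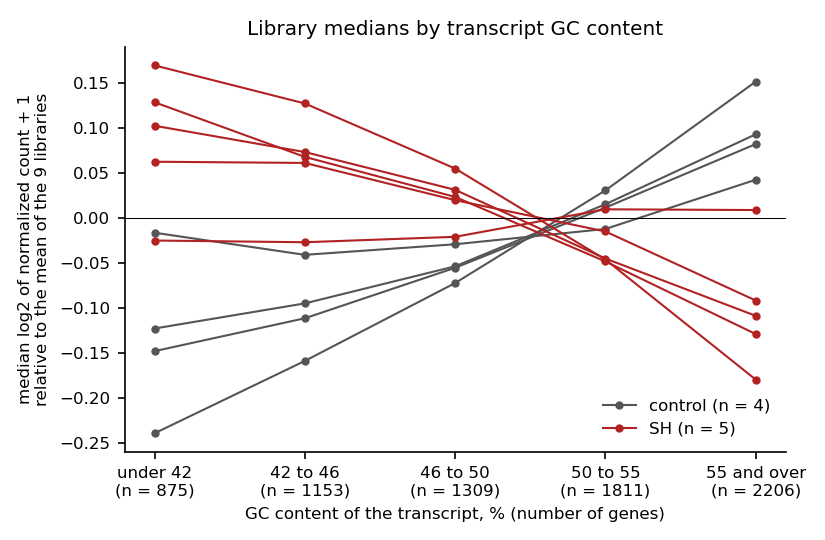
Median log2 of the normalized count plus 1 relative to the mean of the 9 libraries, in 5 classes of transcript GC content, with 1 line per library. Control lines rise from the GC-poor to the GC-rich class and 4 of the 5 SH lines fall, the exception being SH replicate 1, whose medians stay between -0.027 and 0.010.

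Several activity-induced transcription factors were lower in SH. Of the 17 transcription factors tested on this list, 8 fell (47.1% against 10.4% of all genes), 0 rose, and the median log2 fold change was -0.58. Npas4, which neurons induce in response to calcium entry and which directs inhibitory synapse formation (chromosome 19, 5034382 to 5040344, minus strand), had 861, 632, 733 and 508 counts in control and 195, 203, 234, 283 and 341 in SH (-1.44 ± 0.28 SE, adjusted p = 0.00362). Egr4, a zinc finger factor, had 781, 1133, 825 and 1066 counts in control and 509, 242, 290.2, 535 and 498 in SH (-1.20, adjusted p = 0.00388). Fos (chromosome 12, 85520658 to 85524047, plus strand), a subunit of the AP-1 factor, had 358, 556, 466 and 535 counts in control and 243, 189, 198, 252 and 257 in SH (-1.07 ± 0.20 SE, adjusted p = 0.00299). All control libraries of these 3 genes were above all SH libraries, as their choice among genes without overlap required. Junb, another AP-1 subunit, fell from 1945 ± 377 (SD, n = 4) to 925 ± 167 (SD, n = 5; -1.07, adjusted p = 5.54e-04), and Ier2, a nuclear immediate early protein, from 211 ± 47.2 to 98.1 ± 18.2 (adjusted p = 0.00211). Egr1, which is often used as a marker of firing neurons, had 2799, 3693, 3535 and 4155 counts in control and 2054, 1761, 1708, 2745 and 3618 in SH, and its log2 fold change of -0.58 did not pass the adjustment (adjusted p = 0.0899).

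Effector genes of the same response were divided. Of 21 tested, 9 fell (42.9% against 10.4% of all genes) and 3 rose (14.3% against 9.99%), with a median of -0.13. Btg2, an antiproliferative regulator of mRNA deadenylation, had 427, 763, 588 and 637 counts in control and 279, 285, 265, 322 and 279 in SH (-1.08 ± 0.14 SE, adjusted p = 3.74e-04), with a narrow range in SH. Arc, which removes AMPA receptors from synapses, had 2421, 5425, 4375 and 7001 counts in control and 2727, 1490.2, 1619.7, 2664 and 3158 in SH. Control replicate 1 fell within the SH range of Arc, and its log2 fold change of -1.04 (adjusted p = 0.026) lost the call without control replicate 2 or 4 or SH replicate 2 or 3. Apold1, an endothelial early response gene, fell (-0.97, adjusted p = 0.0435), with overlap, a call lost in 8 of the 14 fits that left out 1 library. Inhba, the subunit of activin that neurons secrete in response to activity, moved the other way, with 112, 161, 191 and 202 counts in control and 336, 261, 328, 448 and 405 in SH (1.09 ± 0.18 SE, adjusted p = 0.00157). Homer1, a postsynaptic scaffold gene with an activity-induced short form, rose by 0.37 (adjusted p = 0.00386), and Errfi1, a feedback inhibitor of EGF receptors, by 0.33 (adjusted p = 0.0359). Calls of Arc, Apold1, Homer1 and Errfi1 were lost with the GC content and length trends removed. The call of Errfi1 was also lost without any one of 5 libraries (control replicates 1, 2 and 3, SH replicates 4 and 5). Leaving out control replicate 2 gave 4 lower effectors, control replicate 4 gave 3, and SH replicate 2, 3 or 5 gave 5.

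With both trends removed, 6 of the transcription factors were lower (median -0.42), 5 of them from the first 8 (Npas4, Egr4, Ier2, Junb and Fos) and the other Nr4a3. Among the effectors, Btg2, Dusp1 and Rasl11a were then lower and Inhba higher. Nr4a3 and Rasl11a are named after their values were seen. SH and IH did not differ in any of the 17 transcription factors, and the median of SH minus IH was -0.06. In IH, Fos had 152, 147, 123, 148 and 276 counts and Npas4 159, 293, 277, 246 and 573, and IH replicate 5 was the highest of its group for both.

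Promoters of the genes that fell are shown for the cyclic AMP response element (CRE), the site of the factor CREB that calcium signals activate. Searched as TGACGTCA, a palindrome, in the 250 bases before the transcript start, it was present in 3 of the 9 effectors that were called and had a promoter in the RefSeq table (GRCm38.p6), 33.3%, against 2.92% of the 5753 genes tested that had one and 1.77% of all 27025. Over the whole list of effectors, called or not, it was in 4 of 16 (25%). The 3 called effectors that held it were Btg2 and Dusp1, which fell, and Errfi1, which rose. None of the 7 called transcription factors with a promoter held these letters (0%). The windows of Btg2 (chr1:134079156-134079405, minus strand) and Dusp1 (chr17:26508473-26508722, minus strand), 5′ to 3′ on the strand of the gene, have the element in capitals at 166 and 143 bases before the start. Dusp1, a phosphatase of MAP kinases, had 403, 574, 569 and 562 counts in control and 367, 284, 355, 302 and 316 in SH (-0.70, adjusted p = 0.00463).
Btg2: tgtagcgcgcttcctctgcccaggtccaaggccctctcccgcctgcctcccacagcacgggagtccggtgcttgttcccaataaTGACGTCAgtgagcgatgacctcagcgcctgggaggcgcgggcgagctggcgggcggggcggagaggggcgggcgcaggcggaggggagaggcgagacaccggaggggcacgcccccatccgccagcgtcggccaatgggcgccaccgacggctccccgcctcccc
Dusp1: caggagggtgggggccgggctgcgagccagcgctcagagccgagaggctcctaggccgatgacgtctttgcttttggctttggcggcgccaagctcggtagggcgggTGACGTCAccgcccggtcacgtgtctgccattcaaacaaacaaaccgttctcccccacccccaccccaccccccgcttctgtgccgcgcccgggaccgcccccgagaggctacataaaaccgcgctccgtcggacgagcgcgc

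**Figure D3:**
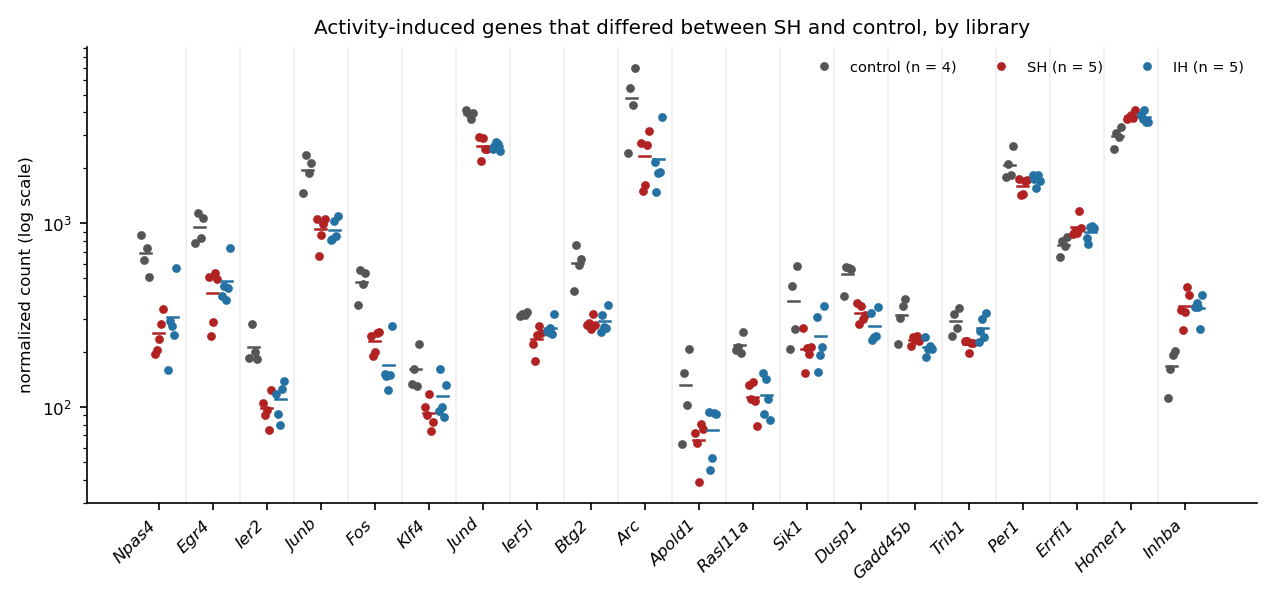
Normalized counts, on a log scale, of the 20 activity-induced genes called in SH vs. control, by library, with group means as bars. Group means of SH lie below control from Npas4 to Per1, with overlap of single libraries for Arc, Apold1, Sik1 and Gadd45b, and above control for Errfi1, Homer1 and Inhba.

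Many ER chaperone genes rose in SH. Of the 17 genes of this list that were tested, 11 were higher (64.7% against 9.99% of all genes), 1 was lower, and the median log2 fold change was 0.27. Sdf2l1, a component of ER chaperone complexes, had 143, 127, 154 and 146 counts in control and 282, 182, 233, 184 and 219 in SH (0.63 ± 0.18 SE, adjusted p = 0.0233). Calr, the calcium-binding chaperone calreticulin, had 6433, 6559, 5872 and 6698 counts in control and 9323, 8772, 8320.5, 7788 and 8556 in SH (0.42 ± 0.075 SE, adjusted p = 0.00224). Hspa5 encodes BiP, the main ER chaperone and sensor of unfolded proteins (chromosome 2, 34661982 to 34668880, plus strand), and had 3802, 4603, 4934 and 4745 counts in control and 6702, 5632, 6056, 5003 and 6123 in SH (0.39, adjusted p = 0.0157). All SH libraries of Sdf2l1, Calr and Hspa5 were above all control libraries, by a small margin for Hspa5. Manf, a secreted neurotrophic factor of the ER, rose from 676 ± 74.6 (SD, n = 4) to 901 ± 86.4 (SD, n = 5; adjusted p = 0.00927). Creld2, a protein of ER stress, rose from 228 ± 26.8 to 320.0 ± 60.7 (adjusted p = 0.0376), with SH replicate 4 inside the control range. Atf4, the transcription factor of the integrated stress response, went the other way, from 2119.6, 2320.1, 2306 and 2506 in control to 1789.6, 1798, 1826, 1857 and 1782 in SH (-0.35 ± 0.06 SE, adjusted p = 0.00169). The study also measured Sdf2l1, Hspa5 and Manf by quantitative PCR (RT-qPCR), with control samples extracted in its main experiment. There the SH means of these genes lay below the control means, and no difference between them was significant.

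Many of these ER genes, but not all, were lower in SH than in IH. Of the 17, 9 were lower in SH than in IH and 0 higher (1.49% of all genes were lower and 0.894% higher), with a median of SH minus IH of -0.35. Hspa5 had 9760.4, 7602, 9147, 7842 and 7669 counts in IH, and SH was below IH (-0.51, adjusted p = 0.0127). Atf4 was among the 9, and in it SH was below both control and IH (-0.28, adjusted p = 0.0217). After removal of the trends, 6 members were higher than control and Hspa5 was not called (0.23, adjusted p = 0.189), while Sdf2l1 reached 0.80 and Manf 0.43. Without control replicate 1 the count of higher members was 6, and Hspa5 was not among them (adjusted p = 0.0556), and without control replicate 2 it was 7. Calls of Sdf2l1 and Creld2 were lost in both fits, and that of Creld2 also without control replicate 4 or SH replicate 1, 2 or 5. Without control replicate 4, 2 members were lower.

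The ER stress response element (ERSE), bound by ATF6 with the factor NF-Y, was searched as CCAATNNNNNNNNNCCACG on both strands of the same windows. It was present in 5 of the 10 called members that had a promoter in the table, 50%, and in 6 of the 15 of the whole list, called or not (40%), against 0.191% of the genes tested. Holders among the called members were Hspa5, Hsp90b1, Calr, Creld2 and Dnajc3, and a match does not show that a factor was bound. Hsp90b1, the chaperone GRP94, had 5588 to 6746 counts in control and 7009 to 7991 in SH (0.27, adjusted p = 0.0221), and Dnajc3, an ER co-chaperone, 1194 to 1516 and 1597 to 1985 (0.34, adjusted p = 0.0087). The windows of Hspa5 (chr2:34771840-34772089, plus strand), Hsp90b1 (chr10:86705445-86705694, minus strand), Creld2 (chr15:88819396-88819645, plus strand) and Calr (chr8:84846932-84847181, minus strand) are given on the strand of the gene, 5′ to 3′, with matches in capitals. Hsp90b1 has 2 matches, 1 on each strand, and the matches of Creld2 and Calr are on the opposite strand.
Hspa5: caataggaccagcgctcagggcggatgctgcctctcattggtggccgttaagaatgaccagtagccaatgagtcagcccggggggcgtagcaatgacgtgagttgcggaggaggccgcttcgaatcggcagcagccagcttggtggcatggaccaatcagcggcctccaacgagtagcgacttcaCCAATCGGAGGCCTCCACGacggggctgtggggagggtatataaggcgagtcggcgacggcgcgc
Hsp90b1: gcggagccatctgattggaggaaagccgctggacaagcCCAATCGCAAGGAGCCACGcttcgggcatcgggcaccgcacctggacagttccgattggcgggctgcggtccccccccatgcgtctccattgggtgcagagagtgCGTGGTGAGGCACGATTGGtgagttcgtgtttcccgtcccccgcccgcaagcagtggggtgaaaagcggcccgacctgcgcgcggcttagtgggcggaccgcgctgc
Creld2: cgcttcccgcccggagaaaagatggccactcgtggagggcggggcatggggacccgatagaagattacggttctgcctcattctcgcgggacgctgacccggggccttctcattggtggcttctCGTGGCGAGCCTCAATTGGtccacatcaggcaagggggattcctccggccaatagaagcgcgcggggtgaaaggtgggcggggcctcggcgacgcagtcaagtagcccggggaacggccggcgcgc
Calr: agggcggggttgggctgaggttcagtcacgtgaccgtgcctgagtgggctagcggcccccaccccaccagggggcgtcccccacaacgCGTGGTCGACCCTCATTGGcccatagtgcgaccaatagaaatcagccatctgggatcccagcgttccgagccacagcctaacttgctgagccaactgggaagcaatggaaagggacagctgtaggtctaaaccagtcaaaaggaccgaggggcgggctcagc

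**Figure D4:**
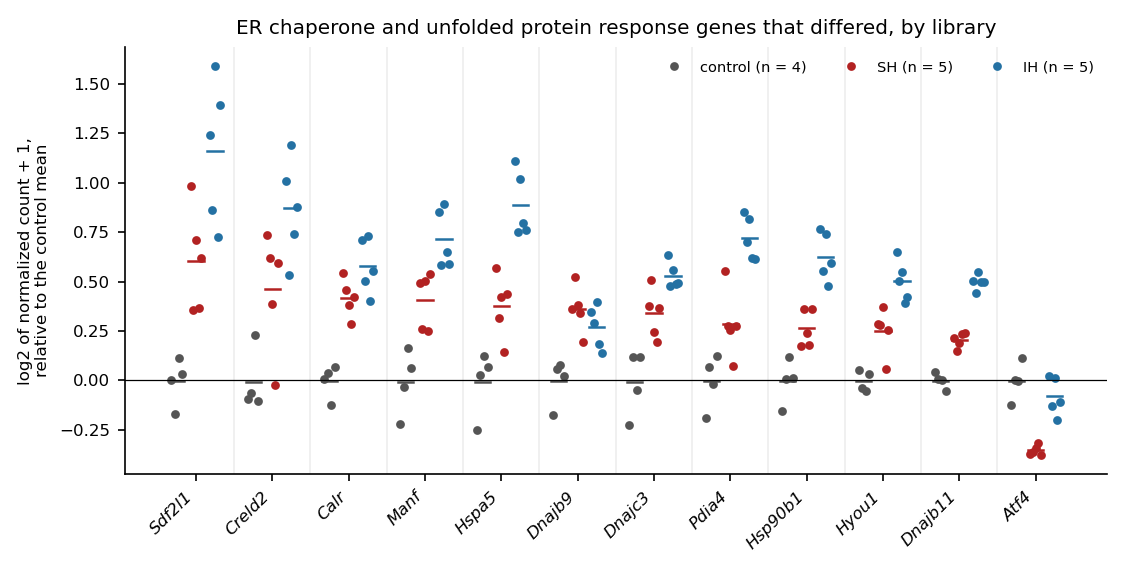
Log2 of the normalized count plus 1 relative to the control mean for the 12 called genes of ER chaperones and the unfolded protein response, by library, with bars for group means. SH means lie between those of control and IH in 10 of the 11 higher genes, Dnajb9 being the exception, and Atf4 lies below control in SH.

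Of 12 cytosolic heat shock chaperones tested, 1 was higher (8.33% against 9.99% of all genes) and 0 lower, and the median was -0.0025. The called gene was Chordc1, a partner of HSP90, which rose from 1737 ± 92.5 (SD, n = 4) to 2141 ± 169.8 (SD, n = 5; adjusted p = 0.0236) and lost the call with the trends removed or without control replicate 1 or 4 or SH replicate 5. Hspb1, a small heat shock protein, had 114, 128, 112 and 229.5 counts in control and 155, 109, 164, 119.9 and 102 in SH, and the inducible Hspa1b 392 to 1004 and 369.7 to 541. Control replicate 4 was the highest control or SH library for both. Neither differed from control (-0.16, adjusted p = 0.667, and -0.45, adjusted p = 0.164), and SH was below IH in Hspb1 (-1.08, adjusted p = 0.0232).

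Among the genes of oxygen sensing, HIF targets changed in part. Of 38 HIF targets listed, 18 were in the count table and 17 were tested. Of these 17, 5 rose (29.4% against 9.99% of all genes) and 1 fell (5.88% against 10.4%), with a median of 0.11. Stc2, a secreted glycoprotein of calcium and phosphate balance, had 98.2, 84.1, 95.3 and 89.2 counts in control and 129, 155, 143, 119.9 and 146 in SH (0.59 ± 0.13 SE, adjusted p = 0.00721), with no overlap. Anln, an actin-binding scaffold protein that is also abundant in oligodendrocytes, had 543, 729, 883 and 538 counts in control and 1244, 904, 974, 1255 and 1252 in SH (0.74, adjusted p = 0.0136). Ndrg1, a stress protein of myelinating cells, rose from 2105 ± 224 (SD, n = 4) to 2704 ± 324 (SD, n = 5; adjusted p = 0.0226). The call of Ndrg1 was lost without control replicate 3 or 4 or SH replicate 4, and that of Anln with the trends removed. Summed oligodendrocyte markers were 79272 to 115768 in control and 90196 to 154978 in SH, and their part in these values was not tested. The other 2 higher targets were Pfkfb3, which makes the activator of glycolysis fructose-2,6-bisphosphate, and Mxi1, a MYC antagonist. Mif, a cytokine, was lower (-0.28, adjusted p = 0.0395), a call lost in 7 of the 14 fits without 1 library, and with the trends removed its difference was 0.032 (adjusted p = 0.83). The count of higher targets was 3 without control replicate 1, 3 or 4 or SH replicate 4, and with the trends removed Stc2 and Ndrg1 were higher and Tfrc, the transferrin receptor, named after its value was seen, was lower.

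Vegfa, the main vessel growth factor among HIF targets, had 1525, 1536, 1532 and 1852 counts in control and 1479, 1535, 1546, 1401 and 1333 in SH. The difference from control did not pass (-0.14, adjusted p = 0.175), and SH was below IH, where it had 1971, 2126, 1899, 2154 and 2185 counts (-0.50, adjusted p = 0.00149). Pdk1, the kinase that closes pyruvate dehydrogenase, and Egln3, a HIF hydroxylase that HIF induces, were at 0.16 (adjusted p = 0.284) and 0.19 (adjusted p = 0.655). Of 14 regulators of the HIF pathway listed, 7 were in the count table and were tested. Of these 7, 0 rose and 1 fell (14.3%, near the 10.4% of all genes). It was Egln2, a HIF hydroxylase, at -0.24 (adjusted p = 0.0307), which turned to 0.051 with the trends removed and lost its call without any one of 7 libraries (control replicates 1, 2 and 4 and SH replicates 2, 3, 4 and 5). Hif1a had 1548 to 1832 counts in control and 1710.2 to 1888 in SH (0.089, adjusted p = 0.319; -0.10 with the trends removed). Epas1, Egln1, Slc2a1, Ldha, Bdnf, Hmox1 and Fkbp5 were not in the count table and could not be analysed here.

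Glycolysis enzymes gave 1 higher and 1 lower gene of 10, shares of 10% each that are near the background of all genes (9.99% and 10.4%), with a median of -0.12. Hk2, the hexokinase bound to mitochondria, had 124, 136, 133 and 94.6 counts in control and 208, 179, 174, 165 and 160.3 in SH (0.54 ± 0.14 SE, adjusted p = 0.018). Its call was lost without control replicate 4, the lowest library, and with the trends removed. Ldhb, the lactate dehydrogenase subunit of oxidative tissue, was lower (-0.18, adjusted p = 0.034), a call that 7 of the 14 fits without 1 library did not keep. Of the 4 erythroid genes tested, 0 rose and 0 fell at the adjusted p (1 fell without SH replicate 1), with a median of -0.31. Hba-a1 was at 735 to 979 counts in control and 634 to 949 in SH (-0.19, adjusted p = 0.302).

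Of 17 angiogenic endothelial genes, 2 rose (11.8% against 9.99% of all genes) and 3 fell (17.6% against 10.4%), so that the list lay within 2 genes of the background, with a median of -0.041. Vegfb, a growth factor of vessel survival and lipid uptake, had 1262, 1192, 1092 and 1233 counts in control and 939, 777, 816, 699 and 728 in SH (-0.59 ± 0.098 SE, adjusted p = 0.00138). The separation of Vegfb was complete. Klf2, the shear stress factor of endothelium, had 217, 312, 191 and 265 counts in control and 170.3, 123, 109, 185 and 114 in SH (-0.81, adjusted p = 0.00681), and Sox18, a factor of vessel identity, fell from 203 ± 38.1 (SD, n = 4) to 120.0 ± 36.2 (SD, n = 5; adjusted p = 0.0403), a call lost in 6 of the 14 fits without 1 library. Flt1, a decoy VEGF receptor, rose by 0.22 (adjusted p = 0.0249), and Adgrl4, an endothelial adhesion receptor with overlap of the groups, by 0.48 (adjusted p = 0.0175). Kdr, the signalling VEGF receptor, was at 405 to 567 counts in control and 339.7 to 604 in SH (0.0083, adjusted p = 0.979), and its sign varied between settings. Once the trends were removed, Vegfb alone of these genes was called (-0.44, adjusted p = 0.00818). Flt1 was not called without control replicate 2, 3 or 4 or SH replicate 2. Adgrl4 was not called without control replicate 2, a fit with 0 higher genes.

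The summed count of 13 endothelial markers was 8409.9 to 10060.5 in control and 10367 to 11605 in SH, without overlap. Of the 13, 4 rose (Flt1, Slco1a4, Abcb1a and Itm2a) and 0 fell, beside 9.99% and 10.4% of all genes. Pltp, one of the most abundant, was at 937 to 1548 counts in control and 1260.1 to 1802 in SH (0.15, adjusted p = 0.497). Pericyte and mural markers overlapped (5718 to 6953 in control, 5726 to 8147 in SH), and 0 of 10 were called. Of 60 collagens, laminins and integrins, 3 rose and 3 fell (5% each, below the 9.99% and 10.4% of all genes; 5 fell with the choroid plexus covariate), with a median of -0.07. Col4a1 and Col4a2, the paired chains of the vascular basement membrane, both fell, from 2812 ± 204 to 2045 ± 219 (adjusted p = 0.00207) and from 3272 ± 287 to 2532 ± 274 (adjusted p = 0.00616; SD, n = 4 and 5). Lamc1, the common laminin gamma chain, rose from 999 ± 84.1 to 1251 ± 86.2 (adjusted p = 0.00806). Col19a1 (-0.40), Lama4 (0.48) and Itgb8 (0.31) were also called, and the calls were lost in 9, 12 and 7 of the 14 fits without 1 library. Lamc1 was the 1 higher gene without control replicate 1, 2 or 3 or SH replicate 1, 2 or 5. Once the trends were removed, the call of Col4a2 was lost as well.

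The summed count of 11 microglial markers was 6412 to 7031 in control and 5002 to 5925 in SH, without overlap, and 4 fell (10.4% of all genes did so) while 0 rose and 7 did not pass. The 4 were Csf1r, C1qc, C1qa and Tyrobp, and with the trends removed the calls of Csf1r, C1qa and Tyrobp were lost. C1qc, a chain of complement C1q, had 792, 873, 917 and 734 counts in control and 638, 449.6, 519.7, 517 and 547 in SH (-0.63 ± 0.12 SE, adjusted p = 0.00289). Csf1r, the receptor on which microglia depend, had 2459.8, 2435, 2366 and 2612 and 2336, 2001, 1842, 2369 and 2029 (-0.22, adjusted p = 0.0468), with some overlap. Tyrobp, an adaptor of microglial receptors, did not overlap and C1qa did. IH libraries summed to 5867 to 7180.5. Cx3cr1, P2ry12 and Tmem119 were not in the count table and could not be analysed here.

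Among the control and SH libraries, oligodendrocyte markers were highest in SH replicates 4 and 5 (149460.0 and 154978), and 2 of 13 rose. Over all genes 9.99% were higher and 10.4% lower, the background of this and the following marker counts, which are small. Mbp, which encodes an abundant myelin protein, did not pass (0.21, adjusted p = 0.529). SH replicates 4 and 5 were also highest for dentate granule cell markers, at 18860.0 and 19391 against 11634 to 12252 in the other SH libraries and 9331 to 12024 in control, and 2 of 12 rose. One of these was Prox1, the factor of granule cell identity, with 1838, 1846, 2122 and 2009 counts in control and 2556, 3100.2, 2695, 4308 and 4428 in SH (0.81, adjusted p = 0.00385). CA3 markers were lowest in the same 2 libraries, 11617 and 9124 against 16323 to 17334 in the other SH libraries, and 0 of 6 were called. IH replicate 5 had the same pattern, with 206439 counts of oligodendrocyte, 19488 of dentate granule cell and 8925 of CA3 markers. CA1 markers (28824 to 33152 in control, 28079 to 32148 in SH) and astrocyte markers (50996 to 55130.4 and 43164 to 52547) overlapped, with 0 of 10 called and 1 of 6 higher. Ependymal markers were 495 to 1031 in control and 1087 to 1489 in SH, without overlap (1 of 8 higher). Oligodendrocyte precursor markers did not overlap either, at 1487 to 1719.9 and 1780.0 to 1976 (1 of 4 higher and 1 lower), and red cell markers were 2926 to 3189 and 2202 to 3080.4 (0 of 4 called). Apart from the choroid plexus covariate and the fit without the libraries rich in choroid plexus markers, the part of tissue content in the results was not tested.

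Of 30 complex I subunits of the respiratory chain, 16 fell (53.3% against 10.4% of all genes) and 1 rose (3.33% against 9.99%), with a median of -0.24. Ndufb1, an accessory subunit, had 493, 565, 588 and 435 counts in control and 272, 332, 313, 282 and 322 in SH (-0.77 ± 0.11 SE, adjusted p = 6.10e-04). Ndufa13 fell from 1889.5 ± 126 (SD, n = 4) to 1229.7 ± 196 (SD, n = 5; adjusted p = 0.00122) and Ndufb7 from 1179 ± 14.7 to 885 ± 39.3 (adjusted p = 0.00169). The subunit that rose was Ndufa3, with 961, 850.3, 936 and 914 counts in control and 1232, 1117, 1326, 1226 and 1103 in SH (0.39, adjusted p = 0.015), and it was also above IH (0.50, adjusted p = 0.0133). Its call was lost without control replicate 2, and 2 subunits were higher without control replicate 4 or SH replicate 1. Without control replicate 2 or control replicate 3, 9 complex I subunits were lower, and with the trends removed 7 were lower and 2 higher.

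Of 7 complex III subunits, 5 fell (71.4% against 10.4% of all genes) and 0 rose (9.99% of all genes did so), with a median of -0.28. Uqcr10 had 1423, 1572, 1660.4 and 1557 counts in control and 849, 923, 968, 852 and 1126 in SH (-0.72 ± 0.11 SE, adjusted p = 7.68e-04), and Uqcr11 had 1282, 1406, 1408 and 1335 and 984, 740.5, 903, 798 and 895 (-0.65, adjusted p = 0.00116). Both are small subunits, and both separated the groups. Uqcr11 was also below IH (-0.55, adjusted p = 0.0108). Uqcrq, the third subunit named by size, fell from 1584 ± 92.8 (SD, n = 4) to 1194 ± 65.7 (SD, n = 5; adjusted p = 0.00207). With the trends removed, 4 of the 7 were lower.

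Of 10 complex IV subunits, 5 fell (50% against 10.4% of all genes) and 0 rose (9.99% of all genes did so), with a median of -0.29. Cox5a, an early-assembled subunit, had 1802, 1911, 1877 and 1739 counts in control and 1226, 1304, 1507, 1270.1 and 1343 in SH (-0.46, adjusted p = 0.00155), and Cox6a1 fell from 4536 ± 186 (SD, n = 4) to 3473 ± 162 (SD, n = 5; adjusted p = 0.00122). Cox8a had the largest difference of this complex, -0.51 (adjusted p = 0.0316), but SH replicate 1 had 6756 counts against 3296 to 3984 in the other SH libraries, and the call was lost in 8 of the 14 fits without 1 library. The count was 3 without any one of 7 libraries (all control replicates and SH replicates 2, 4 and 5). In the fit without the trends, 2 were lower and 1 higher. Of the 2 complex II subunits tested, 0 were called, and 1 was lower without SH replicate 1.

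Some genes of mitochondrial translation and import were lower as well. Of 43 mitochondrial ribosomal proteins, 12 were lower (27.9% against 10.4% of all genes) and 0 higher, with a median of -0.19. Mrpl52 (chromosome 14, 54664360 to 54668593, plus strand) had 368, 386, 404 and 419.9 counts in control and 187, 186, 200.3, 219 and 217 in SH (-0.97 ± 0.11 SE, adjusted p = 1.59e-04), and Mrpl54 had 331, 324, 377 and 295 and 207, 194, 171, 137 and 196 (-0.87, adjusted p = 4.72e-04). Mrpl20 fell from 641 ± 52.8 (SD, n = 4) to 408 ± 39.3 (SD, n = 5; adjusted p = 7.29e-04). All are proteins of the large subunit, and all 3 were also below IH, at -0.55, -0.68 and -0.48 on the log2 scale (adjusted p = 0.0138, 0.00774 and 0.0138). After the trends were removed, 7 of the 43 were lower. Of 11 import subunits (TIMM and TOMM), 3 were lower (27.3% against the same 10.4%), 0 higher and the median was -0.18. They were Tomm7 (-0.48, adjusted p = 0.0204), Timm50 (-0.32, adjusted p = 0.0291) and Timm9 (-0.24, adjusted p = 0.0279), and 0 were called without control replicate 1 and 1 without control replicate 4 or SH replicate 4. Of 9 mitochondrial aminoacyl-tRNA synthetases, 1 rose (11.1%, near the 9.99% of all genes) and 0 fell, with a median of -0.01. It was Lars2, the leucyl-tRNA synthetase, at 3436, 3099.8, 3411 and 3219 in control and 5229, 6432, 4689, 4512 and 4029.6 in SH. Without SH replicate 1, 1 synthetase was lower, and without SH replicate 2, 2 were higher.

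Cytosolic ribosomal proteins fell more often than they rose, 26 against 4 of 65 (40% and 6.15%, against 10.4% and 9.99% of all genes), with a median of -0.16. Rps29 had 2908, 2932, 2987 and 2669.6 counts in control and 1460.3, 1589.5, 1535, 1425 and 1999 in SH (-0.84 ± 0.10 SE, adjusted p = 2.66e-04). Rpl38, which is required for the translation of Hox mRNAs in the embryo (chromosome 11, 114559350 to 114563166, plus strand), had 1908, 2097, 2197 and 1829.8 and 1186, 1064, 1078, 1201 and 1239 (-0.80 ± 0.07 SE, adjusted p = 1.45e-05). Rps19, mutated in Diamond-Blackfan anemia, had 2274, 2647, 2606 and 2388 and 1543, 1516, 1478, 1609.8 and 1623 (-0.67, adjusted p = 1.59e-04) and was also below IH (-0.48, adjusted p = 0.00461). Each of these 3 separated the groups. Those that rose included Rpl22l1, a paralog of Rpl22, with 397, 516, 586 and 461 in control and 737, 772, 874, 708 and 892 in SH (0.70, adjusted p = 0.00157), and Rpl39, which lines the exit tunnel, with 756, 816, 817 and 758 and 1026, 1156, 1021, 1028 and 1191 (0.46, adjusted p = 0.00378). Rpl17 rose as well (0.62, adjusted p = 0.0293), with SH replicate 2 far above the others, and lost its call without control replicate 1, 2 or 3, and the other higher gene was Rps6, named after its value was seen. All of Rpl22l1, Rpl39 and Rpl17 were above IH, by 0.56, 0.82 and 0.73. After the trends were removed, 13 ribosomal proteins were lower and 6 higher, and without control replicate 1 or 2 there were 2 higher. Ribosomal protein genes have many processed pseudogenes, and their counts could have been split.

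**Figure D5:**
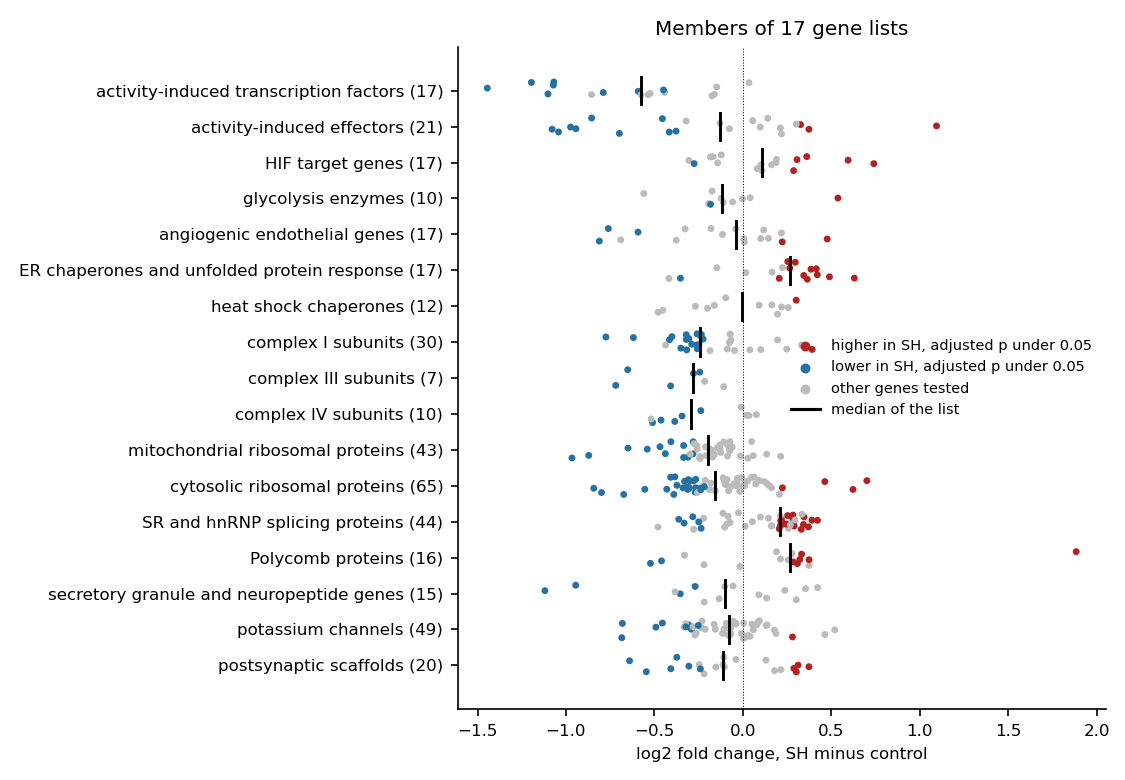
Log2 fold change of SH minus control for the tested members of 17 gene lists, with the number tested in parentheses. Each point is a gene, red when called higher, blue when called lower and grey otherwise, and black bars are medians. The activity-induced transcription factors lie furthest to the left (median -0.58), and the ER chaperone, splicing and Polycomb lists lie to the right of 0 (medians 0.27, 0.21 and 0.27).

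Of 44 SR, hnRNP and related splicing proteins, 18 were higher (40.9% against 9.99% of all genes) and 5 lower (11.4%, near the 10.4% of all genes), with a median of 0.21. Srsf3, an SR protein of exon definition, had 2383, 2769, 2928 and 2627 counts in control and 3011, 3687, 3651, 3821 and 3373 in SH (0.39 ± 0.072 SE, adjusted p = 0.00278), and Tra2a had 2205, 2494, 2369 and 2227 and 2869.9, 3060.2, 2759, 3171 and 3164 (0.37, adjusted p = 0.00303). Rbm28, a nucleolar spliceosome protein, rose from 1232 ± 134 (SD, n = 4) to 1650.0 ± 133 (SD, n = 5; adjusted p = 0.00946). On the lower side were Rbm3, the cold-inducible protein that protects synapses, from 1577 ± 120.4 to 1226 ± 81.4 (adjusted p = 0.00451), and Nova2, a neuronal splicing factor, from 3703 ± 476 to 2941 ± 54.7 (adjusted p = 0.00766). Rbm42 was lower (-0.28, adjusted p = 0.0372), a call lost in 7 of the 14 fits without 1 library. Most of the higher calls were lost with the trends removed, as over all genes, where 145 of 738 were kept. The loss left 4 higher (Srsf3, Tra2a, Hnrnph1 and Mbnl2, the last 2 named after their values were seen), 2 lower (Rbm3 and Nova2) and a median of 0.069. Without control replicate 1 the count of higher genes was 11.

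Of 16 Polycomb proteins, 6 were higher (37.5% against 9.99% of all genes) and 2 lower (12.5% against 10.4%), with a median of 0.27. Beside Phc3, the gene that rose most, Rybp, a subunit of the noncanonical complex, had 869, 893, 875 and 970.4 counts in control and 1129, 1179.8, 1204, 1195 and 1132 in SH (0.37, adjusted p = 0.00157). Aebp2, a cofactor of PRC2, rose from 1431 ± 144 (SD, n = 4) to 1801 ± 105 (SD, n = 5; adjusted p = 0.00574). Epop and Phf1, which also bind PRC2, fell (-0.52 and -0.46, adjusted p = 0.00401 and 0.00628), and both calls were lost with the trends removed. In that fit Phc3 and Aebp2 were higher, Rybp was not called, and 0 members were lower.

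Of 24 G protein subunits and RGS proteins, 7 fell (29.2% against 10.4% of all genes) and 1 rose, with a median of -0.082, and with the trends removed 4 were lower and 0 higher. After Gng13 these were led by Gng5, another gamma subunit, which fell from 306 ± 16 (SD, n = 4) to 218 ± 34.5 (SD, n = 5; adjusted p = 0.00891). Rgs20 (-0.40, adjusted p = 0.0464) and Rgs17 (0.40, adjusted p = 0.0359), which both belong to the RZ family of GTPase activators, went in opposite directions, with overlap of the groups in each, and the calls were lost in 12 and 6 of the 14 fits without 1 library. Of 15 secretory granule and neuropeptide genes, 4 were lower (26.7% against 10.4% of all genes) and 0 higher, with a median of -0.10. With Pcsk1n and Enho, Scg5, the chaperone of prohormone convertase PC2, fell from 2665 ± 209.9 to 2085 ± 101 (adjusted p = 0.0047), and the other lower gene was Chga, chromogranin A.

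Potassium channel genes were lower in 8 and higher in 1 of 49 (16.3% and 2.04%, against 10.4% and 9.99% of all genes), with a median of -0.076. Kcng2, a silent subunit that modifies Kv2 channels, had 776, 725, 817 and 816 counts in control and 548, 469, 455, 492 and 472 in SH (-0.68 ± 0.078 SE, adjusted p = 1.59e-04). Kcnj4, an inward rectifier of the postsynaptic membrane, fell from 1290.2 ± 86.9 (SD, n = 4) to 918 ± 51.5 (SD, n = 5; adjusted p = 9.79e-04), and Kcnk12, a two-pore subunit, from 332 ± 54.3 to 207 ± 31.4 (adjusted p = 0.00761). The higher gene, Kcnt2 (0.28, adjusted p = 0.048), lost its call in 11 of the 14 fits without 1 library. With the trends removed, 4 were lower and 0 higher, and 5 were lower without control replicate 2, 3 or 4 or SH replicate 4.

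Transmitter receptors coupled to G proteins gave 3 higher and 2 lower genes of 33 (9.09% and 6.06%, against 9.99% and 10.4% of all genes), with a median of 0.071. The lower count was 5 without SH replicate 1 and 0 without control replicate 2 or SH replicate 2 or 5. Htr1a, the inhibitory serotonin receptor of hippocampal pyramidal cells, had 739, 749.8, 791 and 701 counts in control and 1001, 915, 987, 1264 and 1159 in SH (0.51 ± 0.089 SE, adjusted p = 0.00188). Sstr2, a somatostatin receptor, rose from 133 ± 22.5 (SD, n = 4) to 204 ± 29.9 (SD, n = 5; adjusted p = 0.019), and Htr2a, an excitatory serotonin receptor, from 331 ± 58.4 to 441 ± 31.5 (adjusted p = 0.0251). Adra2c (-0.42, adjusted p = 0.0214) and Sstr3 (-0.40, adjusted p = 0.0464) were lower with overlap, and the calls were lost in 3 and 10 of the 14 fits without 1 library. After removal of the trends, Htr1a and Sstr2 were higher, as was Sstr4, named after its value was seen, and 0 were lower. Leaving out control replicate 3 ended the call of Sstr2, and control replicate 1 or SH replicate 3 that of Htr2a.

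Postsynaptic scaffolds divided into 6 lower and 4 higher of 20 (30% and 20%, against 10.4% and 9.99% of all genes), with a median of -0.11. Dlgap3, which links PSD-95 to SHANK proteins, had 9284, 9255, 9186 and 8883 counts in control and 7288, 5501, 5872, 6294 and 6381 in SH (-0.55 ± 0.067 SE, adjusted p = 2.66e-04), and Shank3 had 9507, 10409.8, 9843 and 10058 and 8326, 6562, 6946, 7668 and 8027 (-0.41, adjusted p = 0.00224). Camk2n2, an inhibitor of CaMKII, fell (-0.64, adjusted p = 0.0167), a call lost without control replicate 1. Dlg1, which encodes SAP97, rose from 2240.1 ± 141 (SD, n = 4) to 2781 ± 112 (SD, n = 5; adjusted p = 0.00177), and Nrxn3, a presynaptic adhesion gene on this list, from 4187 ± 83.2 to 5161 ± 355 (adjusted p = 0.00564). None of the 20 was called with the trends removed (0 higher, 0 lower). Dlgap3 and Shank3 then stood at -0.16 (adjusted p = 0.0799) and -0.19 (adjusted p = 0.122).

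Clock genes gave 4 higher and 2 lower of 17 (23.5% and 11.8%, against 9.99% and 10.4% of all genes), with a median of 0.081. Hlf, an output factor of the clock, rose from 2679.9 ± 278 (SD, n = 4) to 3479.8 ± 474 (SD, n = 5; adjusted p = 0.0185), a call lost without control replicate 2. Csnk1d, the kinase that marks PER proteins, had 3204, 3089, 3058 and 3134 counts in control and 3905, 3769, 4169, 3618 and 3667 in SH (0.29, adjusted p = 0.00207), and it was above IH (0.23, adjusted p = 0.0256). Per1, which is also induced by activity and by glucocorticoids, was lower (-0.38, adjusted p = 0.0209), as was Dbp (-0.33, adjusted p = 0.0387), and neither was called without control replicate 4 or with the trends removed. The call of Dbp was lost in 7 of the 14 fits without 1 library, and without control replicate 2 the clock list had 2 higher genes. Per2 (0.12, adjusted p = 0.426) and Nr1d1 (-0.045, adjusted p = 0.777), core genes of opposite phase, did not differ beyond the spread. Csnk1d was still called with the trends removed.

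Genes that glucocorticoids induce gave 3 higher and 1 lower of 14 (21.4% and 7.14%, against 9.99% and 10.4% of all genes), with a median of 0.012. The higher ones were Plin4, Errfi1 and Gjb6, an astrocyte connexin that rose from 802 ± 45.1 (SD, n = 4) to 987 ± 55.3 (SD, n = 5; adjusted p = 0.0137). Sgk1, a kinase often used as a marker of the hormone, had 1013, 1255, 1285 and 1400.1 counts in control and 1617, 1562, 1039, 2443 and 1303 in SH (0.36, adjusted p = 0.225). The lower gene was the metallothionein Mt1 (-0.35, adjusted p = 0.0455), whose call was lost in 10 of the 14 fits without 1 library.

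Antioxidant genes and NRF2 targets were lower in 6 (17.1% against 10.4% of all genes) and higher in 1 of 35 (2.86% against 9.99%), with a median of -0.099. Mgst3, a microsomal glutathione transferase, fell from 813 ± 23.6 (SD, n = 4) to 570.3 ± 68.9 (SD, n = 5; adjusted p = 0.00602), and Ftl1, the ferritin light chain, from 4621 ± 96.1 to 3553 ± 305 (adjusted p = 0.002). Gclc, which makes the first bond of glutathione, was higher by 0.18 on the log2 scale (adjusted p = 0.0382), and 6 of the 14 fits without 1 library did not call it. Nfe2l2, which encodes NRF2, was at 0.29 (adjusted p = 0.205) and Sod3, the extracellular superoxide dismutase, at -0.20 (adjusted p = 0.584). The count of lower members was 2 without control replicate 2 or SH replicate 2, 3 without control replicate 1 or 3 or SH replicate 5, and 2 with the trends removed. It was 3 with the choroid plexus covariate and with scaling by the library total.

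Other families had between 4% and 13.0% of their members higher or none (9.99% of all genes) and between 1.92% and 15.8% lower (10.4% of all genes), and their called genes are named after their values were seen. Synaptic vesicle and active zone genes had 2 higher (Slc18a2 and Synpr) and 4 lower (Syn1, Syt5, Rab3a and Slc17a7) of 29, and glutamate receptors 0 higher and 3 lower (Grin2d, Grik5 and Grina) of 19. Calcium and sodium channels had 1 higher (Cacnb4) and 2 lower (Cacnb3 and Cacng7) of 16. Protocadherins had 4 higher (Pcdha4, Pcdhb13, Pcdh17 and Pcdh9) and 1 lower (Pcdha11) of 52. Proteasome subunits had 1 higher (Psmd10) and 3 lower (Psmb2, Psmb3 and Psmb4) of 25, and WNT pathway genes 1 higher (Fzd3) and 1 lower (Wnt9a) of 23. Histone genes had 1 higher (H2bc8) and 2 lower (H1f10 and H2ax) of 16, and histone methyltransferases and demethylases 3 higher and 1 lower of 23. Solute carriers had 8 higher and 14 lower of 140, and zinc finger (Zfp) genes 9 higher and 14 lower of 204. Median log2 fold changes of these 10 lists lay between -0.10 and 0.11. These small counts moved with single libraries. Lower glutamate receptors numbered 1 without control replicate 1 or 2 or SH replicate 4, and 3 were higher without SH replicate 1. Lower synaptic vesicle genes numbered 1 without control replicate 1 and 2 without control replicate 2 or SH replicate 4 or 5. Higher protocadherins numbered 2 without control replicate 1 or 4 or SH replicate 4, and lower proteasome subunits 5 without SH replicate 1. Counts of the channel, WNT, histone and histone methyltransferase lists also moved in some of these fits. Zinc finger genes varied too, with 2 higher when control replicate 1 was left out, 3 for control replicate 2 and 16 for SH replicate 1, and with 6 lower without control replicate 1. Lower solute carriers numbered 7 to 9 without control replicate 1, 2 or 4 or SH replicate 2 or 4. With the trends removed, 2 zinc finger genes were higher and 6 lower, and 4 solute carriers were higher and 2 lower. Histone genes then had 4 higher and 0 lower, histone methyltransferases and demethylases 1 and 0, and synaptic vesicle genes 1 and 0. Protocadherins had 1 higher and 1 lower, and proteasome subunits and WNT pathway genes 0 higher and 1 lower each. Glutamate receptors and calcium and sodium channels had 0 higher and 0 lower.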

How the data were processed

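Poly(A) RNA of the hippocampus was sequenced in 14 libraries, and the authors trimmed reads with fastp 0.23.4, aligned them to GRCm39 with HISAT2 2.2.1 and estimated counts with StringTie 2.2.1, per the labels and submitters' processing notes. The deposited table holds estimated counts per gene, kept by the authors for protein-coding genes with a minimum level and a difference of their processed signal from control. Values of 10 genes were rounded to whole counts. All 14 libraries entered a single edgeR 4.0.16 quasi-likelihood fit (R 4.3.3; TMM scaling, 3 groups), with Benjamini-Hochberg adjustment over the 7385 genes whose mean count reached 40 in both SH and control, and a gene was called at an adjusted p under 0.05. Lengths and GC contents came from the GRCm39 annotation for 7723 of 7756 symbols. Promoters came from RefSeq (GRCm38.p6), and their coordinates belong to that build only. On simulated data, 169 of 200 changed genes were recovered, 67.2% at a log2 fold change of 0.7, 87.5% at 1 and 97.2% at 1.5, with 1 false call. Simulated counts were drawn independently for each gene and library, without trends on GC content or length and without an effect of experiment. The simulation therefore cannot give the number of false calls in the real comparison. Pairs of libraries within a group differed beyond sampling noise (chi-square per degree of freedom at least 8.72 over 26 pairs). The members of the gene lists and the genes named were chosen with earlier results of these data known. Named genes were the 10 highest and 10 lowest called genes without overlap, the 5 smallest adjusted p in each direction, up to 3 called members per list and direction, and a set of genes named whatever their values, except for some results that are not reported here. Alternatives were other scalings, DESeq2 1.42.0, other filters, a fit of 2 groups, a replicate block, removal of loess trends on GC content and length, a choroid plexus covariate, and leaving out each library. The GC trend alone, the length trend alone and the fit without the libraries rich in choroid plexus markers were added after seeing the data.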

Additional observations from a re-analysis of the deposited data

Results flagged for a closer look

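In 296 groups of 4 or 5 values, 20 single libraries stood apart from the rest of their group by Dixon's test, where chance gives about 5%. Among control libraries, replicate 4 had 126783 summed choroid plexus marker counts (others 4114 to 5632), 1852 of Vegfa (1525 to 1536) and 230 of Hspb1 (112 to 128). Control replicate 3 had 268 of Creld2 (212 to 218), 1313 of Gclc (1186 to 1202), 3854 of the thalamus and habenula markers (2585 to 2711) and 1487 of the oligodendrocyte precursor markers (1707 to 1720). Control replicate 2 had 281 of Ier2 (182 to 198) and 1812 of Egln2 (1656 to 1669). Control replicate 1 had 573 of Phc3 (704 to 730) and 5900 of the cortical markers (4707 to 4859).

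Among SH libraries, replicate 5 had 5537 of the thalamus and habenula markers (2842 to 3040), 150 of Ankub1 (103 to 107), 1770 of Lsm14a (1583 to 1623) and 1999 of Rps29 (1425 to 1590). SH replicate 1 had 6756 of Cox8a (3296 to 3984) and 1567 of Ndufa13 (1070 to 1198). SH replicate 4 had 1170 of Errfi1 (873 to 941), SH replicate 3 had 1448 of Itgb8 (1826 to 1952) and SH replicate 2 had 1851 of Rpl17 (783 to 1074).

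SH differed from IH in 23 of the 130 named genes by the test of SH minus IH itself (edgeR, adjusted over all genes), where 0.894% of all genes were higher and 1.49% lower. Most of these genes were named for their difference from control, and both comparisons use the SH libraries. SH was lower in Gng13 (-0.95), Enho (-0.63), Pcsk1n (-0.66), Hcfc1r1 (-0.29), Neurl1a (-0.23), Uqcr11 (-0.55), Mrpl52 (-0.55), Mrpl54 (-0.68), Mrpl20 (-0.48), Rps19 (-0.48), Atf4 (-0.28) and Ftl1 (-0.28), all of which were also below control. SH was lower than IH in Vegfa (-0.50) and Hspb1 (-1.08), which did not pass against control, and in Hspa5 (-0.51), which was above control. SH was higher than IH in Phc3 (1.30), Cpeb4 (0.24), Csnk1d (0.225), Ndufa3 (0.50), Lars2 (0.57), Rpl22l1 (0.56), Rpl17 (0.73) and Rpl39 (0.82), all above control too. Adjusted p ranged from 1.77e-04 for Rpl39 to 0.0384 for Rpl17.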

How the results depend on the processing

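The control libraries come from a preliminary experiment, and the batch and the exposure cannot be told apart in SH against control. In the RT-qPCR of the study, with control samples of its main experiment, Phc3, Pknox1, Lars2 and Klf2 did not differ significantly between SH and control. The number of genes called in that comparison was 1356 to 1709 under the other scalings, filters, DESeq2, the 2-group fit, the choroid plexus covariate and the replicate block, 420 with the GC content and length trends removed, 391 with the GC content trend alone removed, 1078 with the length trend alone removed, 26 without the 6 libraries rich in choroid plexus markers, and 909 to 1738 leaving out 1 library. Genes at the limits of the study numbered 201, and 194 to 281 leaving out 1 library. SH against IH gave 176 genes, 301 with DESeq2, 64 with only the 2 groups, 0 without the choroid-rich libraries and 87 to 181 leaving out 1 library.

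The replicate block gave 1436 genes for SH against control, 200 at the limits of the study and 149 for SH against IH. Libraries of the same number did not deviate together (correlations -0.076, -0.080, 0.062 and -0.30), so the numbers do not pair them. Among the 130 named genes, 11 calls were lost and 1 was gained with the block.

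Of 116 named genes that were called, 58 were called with the same sign in every alternative set out at the start, and 50 were lost with both trends removed. Over the fits without 1 library, 76 were called in all 14, 10 were lost in 1 and 30 in 2 or more, most often without control replicate 2 (29), control replicate 1 (28) or control replicate 4 (23). Signs turned in 2 called genes and 5 uncalled ones, and the cause was not tested. With both trends removed the log2 fold changes were 0.051 for Egln2, 0.032 for Mif, -0.10 for Hif1a, 0.12 for Hspb1, 0.078 for Nr1d1, 0.0052 for Hba-a1 and -0.077 for Kdr. With the GC content trend alone removed they were 0.044 for Egln2, -0.088 for Hif1a, 0.060 for Hspb1, 0.083 for Nr1d1 and -0.030 for Kdr, and with the length trend alone -0.0096 for Hif1a and -0.081 for Kdr. Kdr was -0.010 with scaling by the 80th percentile, -0.059 with the covariate and -0.019 without the choroid-rich libraries, and was below 0 without control replicate 2 (-0.013) or 3 (-0.070) or SH replicate 1 (-0.038), 2 (-0.081) or 3 (-0.046). Leaving out 1 library, Hspb1 lay between -0.27 and 0.14, Nr1d1 between -0.089 and 0.0083 and Kdr between -0.081 and 0.11. Hspb1 was 0.28 without the choroid-rich libraries and 0.14 without control replicate 4, and Nr1d1 was 0.0083 without control replicate 1 and 0.0021 without SH replicate 4. With 4 and 5 libraries, a small change in an uncalled gene may have been missed at this depth.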
